A study of Mus musculus with 4 samples.

Results

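Ebf1, Pax5, Blnk, Stap1, Cd79a, Cd79b, Vpreb1, Igll1, Rag1 and Dntt form a set of 10 genes that mark lymphoid priming and the first steps of B cell development. Each gene was read from the probe set whose platform annotation gives exactly 1 symbol, which left 9 of the 10 genes among 30142 genes and 65956 features in all. The probe set that names Rag1 also names another gene, so Rag1 is not analysed here. The study exposed lineage-negative, c-Kit-positive cells of NOD mice, a strain prone to autoimmune diabetes, to drugs in StemSpan medium for 4 h at 37 °C. Vehicle cells (2 samples) received DMSO, and combination cells (2 samples) received 10 µM dmPGE2, a stable analog of prostaglandin E2, together with 10 µM dexamethasone, a synthetic glucocorticoid. No sample carried 1 of the drugs alone, and the sources used here do not give the age of the mice or whether animals were pooled. Expression was measured on whole-transcript arrays, 1 per sample. Signals are on the log2 scale of RMA, in which background is corrected and the arrays are brought to 1 distribution, and differences are combination minus vehicle. The comparison asks which of these transcripts differ once the progenitors have met both drugs.

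B cells arise in the bone marrow from multipotent progenitors that first switch on a small set of lymphoid genes at low level. E proteins and EBF1 then open the B cell programme, PAX5 locks it in, and RAG1, RAG2 and terminal transferase assemble and diversify the heavy chain gene. The heavy chain pairs with the surrogate light chain, made of VPREB1 and the lambda 5 protein of Igll1, and signals through CD79A and CD79B to the adaptor BLNK. Lymphoid precursors are a classic target of glucocorticoids, which kill or arrest them.

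The promoters of these genes are shown because several members share matches to the E protein motif, 1 of 6 motifs searched. The choice of genes used no sequence, but E proteins help open the B cell programme that these genes mark. The shared matches are therefore not independent of that choice. RefSeq (GRCm38.p6) promoter windows were at hand for 8 of the 10 genes, and the 250 bases before the start were searched on both strands. Stap1 and Cd79b had no window, so the motif results do not cover them. The E protein motif CAGGTG, which reads CACCTG on the other strand, was found for Blnk, Cd79a, Vpreb1, Igll1 and Rag1. It occurred in 17.2% of all 32851 promoter windows. The windows are chr19:40994222-40994471 (minus strand) for Blnk, chr7:24897247-24897496 (plus strand) for Cd79a, chr16:16869256-16869505 (minus strand) for Vpreb1 and chr16:16863986-16864235 (minus strand) for Igll1. They are printed 5′ to 3′, with motif matches in capitals.
Blnk: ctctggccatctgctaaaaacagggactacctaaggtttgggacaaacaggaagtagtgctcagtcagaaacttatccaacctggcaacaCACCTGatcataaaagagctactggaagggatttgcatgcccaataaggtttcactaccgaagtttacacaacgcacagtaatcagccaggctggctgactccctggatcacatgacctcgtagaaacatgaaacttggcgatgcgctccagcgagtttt
Cd79a: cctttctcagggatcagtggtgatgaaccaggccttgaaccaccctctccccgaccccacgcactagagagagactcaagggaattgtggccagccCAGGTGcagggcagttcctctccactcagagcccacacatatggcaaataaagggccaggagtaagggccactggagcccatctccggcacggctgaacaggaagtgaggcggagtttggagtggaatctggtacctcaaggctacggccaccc
Vpreb1: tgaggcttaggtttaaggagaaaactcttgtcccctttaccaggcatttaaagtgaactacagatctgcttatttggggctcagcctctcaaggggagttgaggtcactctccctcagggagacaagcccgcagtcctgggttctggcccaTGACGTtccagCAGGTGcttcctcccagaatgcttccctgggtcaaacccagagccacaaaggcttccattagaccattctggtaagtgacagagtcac
Igll1: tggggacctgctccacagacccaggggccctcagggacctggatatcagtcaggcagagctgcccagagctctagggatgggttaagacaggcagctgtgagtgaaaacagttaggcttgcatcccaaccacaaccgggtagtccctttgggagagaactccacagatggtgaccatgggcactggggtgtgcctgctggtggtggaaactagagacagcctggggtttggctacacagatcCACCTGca
The second stretch of capitals in Vpreb1, TGACGT, is the core of the cAMP response element, which 6.47% of all windows held on either strand. The Ikaros core TGGGAA, which reads TTCCCA on the other strand, was found in 1 of the Ebf1 windows and in that of Rag1, against 21.6% of all windows. No match in these windows was found for the EBF palindrome, TCCC and GGGA set 2 bases apart (0.779% of all windows). The same held for the PU.1 core GAGGAA followed by GT (2.44%) and for the glucocorticoid element, GNACA and TGTNC set 3 bases apart (0.387%). A match describes letters only. Among the genes printed here, Blnk alone had combination arrays apart from its vehicle arrays, as given below. Ebf1 and Pax5, whose windows held no E protein match, had groups apart as well. Whether the motif bears on the differences was not tested.

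The arrays carried the transcripts of the sorted fraction. Kit lay between 9.62 and 10.51 on all 4 arrays, and Mpo, a granule enzyme gene of myeloid progenitors, between 17.63 and 18.13. Of the 8 progenitor markers, Cd48 (log2 difference -0.94) and Myb (-0.51) were lower at an unadjusted p under 0.05 in limma, against 2.44% of all features. By that measure 0 of the 8 were higher, and 0 passed the adjusted threshold. All 8 measured T cell markers had means within the range of the 23 background probe sets, which reached 5.55. In the list of mature B and plasma cell markers, 6 of 9 measured genes lay within that range in both groups, among them Ms4a1 (CD20), Cr2, Fcer2a and Cd22. The same held for 17212 of all 30142 genes. The 7 neutrophil markers had a summed signal, carried by S100a8, S100a9 and Ngp, that separated the samples by replicate number, at 16.50 and 16.57 on the arrays numbered 1 and 14.33 and 14.71 on those numbered 2. Mmp8 of that list instead had groups apart, at 6.29 and 4.34 with vehicle and 8.13 and 7.37 with the combination (limma's adjusted p = 0.802). In cell mixtures such as these, fewer cells of a type and less RNA per cell cannot be told apart.

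Of the 9 genes, 3 were above the background range in both groups: Stap1, Cd79b and Vpreb1. The other 6 genes, Ebf1, Pax5, Blnk, Cd79a, Igll1 and Dntt, had both group means within it, as did 17212 of all 30142 genes. The limit of that range, 5.55, is the highest value of any background probe set, while the background means per array were 3.07 to 3.16. Signals low in that range are compressed towards the background, so their differences may be understated. The plot of signals by array shows Stap1 alone far above the dashed background line with vehicle.

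**Figure D1:**
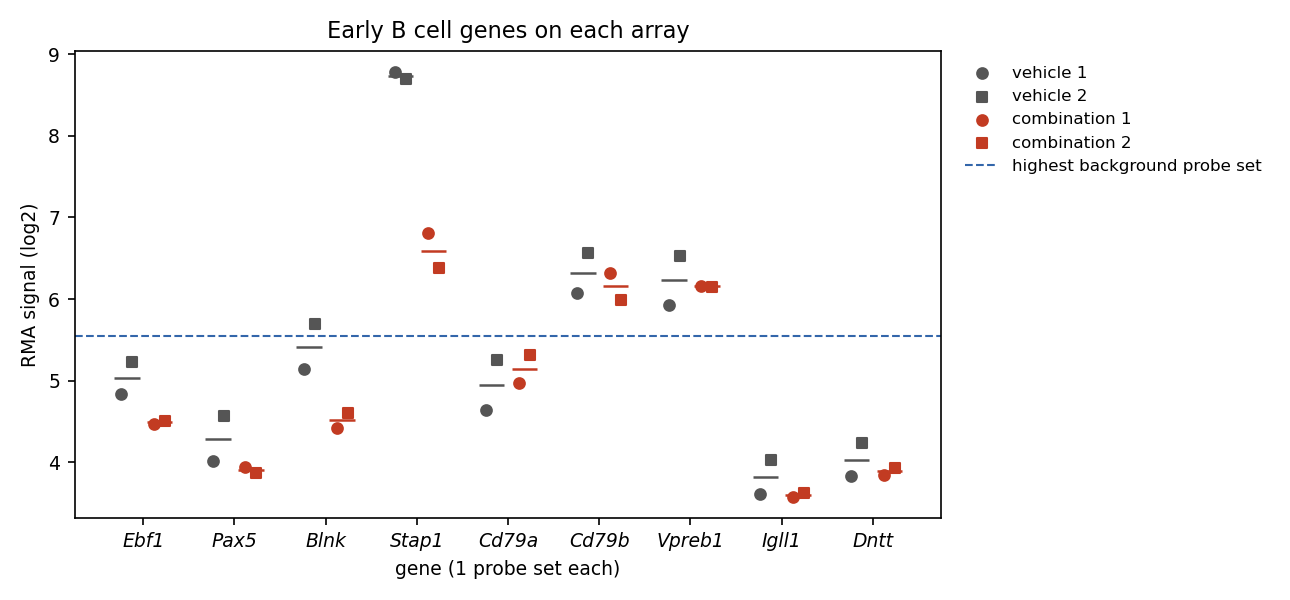
RMA signal (log2, vertical axis) of the 9 measured early B cell genes on the vehicle arrays (grey) and the combination arrays (red). Circles are replicate 1, squares replicate 2, short lines the group means, and the dashed line the highest background probe set at 5.55. The means of Stap1 are 8.74 (vehicle) and 6.59 (combination), while the antigen receptor and surrogate light chain genes overlap between the groups.

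The largest difference among the early B cell genes was that of Stap1. It encodes an adaptor with a pleckstrin homology and an SH2 domain, found in stem and progenitor cells and in B cells, and it is a docking partner of the receptor KIT and of Tec family kinases. The signal of Stap1 was 8.78 and 8.70 on the vehicle arrays and 6.80 and 6.39 on the combination arrays. Both combination arrays lay well below both vehicle arrays, and the groups were further apart than either pair of replicates. Stap1 was 8.74 ± 0.06 with vehicle and 6.59 ± 0.30 with the combination (SD, n = 2), 4.42-fold lower (log2 difference -2.15, SE 0.19, 95% interval -2.64 to -1.65). In limma's moderated test its unadjusted p was 0.000152, and its p adjusted by Benjamini-Hochberg over all features was 0.196, above the threshold of 0.05. By size, Stap1 had rank 14 among the most negative differences of the 30142 genes. With any 1 array left out, the log2 difference of Stap1 stayed between -2.35 and -1.94.

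The second adaptor, Blnk, links the activated B cell receptor and pre-B cell receptor to phospholipase C and Bruton's kinase, and it is also expressed in macrophages and dendritic cells. Its signal was 5.14 and 5.69 on the vehicle arrays and 4.42 and 4.60 on the combination arrays. The groups did not overlap, although vehicle 1 and vehicle 2 differed by 0.55 from each other. Blnk differed by -0.90 on the log2 scale (SE 0.23, 95% interval -1.51 to -0.30), with limma's unadjusted p at 0.013 and adjusted p at 0.779. Without vehicle 2 the difference of Blnk was -0.63, and without vehicle 1 it was -1.18.

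Among the lineage factors, Ebf1 encodes the pioneer factor that specifies the B cell fate. Ebf1 read 4.84 and 5.23 with vehicle and 4.47 and 4.51 with the combination. The combination arrays lay close together and below both vehicle arrays, with all 4 values within the background range. The log2 difference of Ebf1 was -0.55 (SE 0.18, 95% interval -1.02 to -0.07), with limma's unadjusted p at 0.0316 and adjusted p at 0.845. Without vehicle 2 it was -0.35, at an unadjusted p of 0.132 in limma, and without vehicle 1 it was -0.74.

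Pax5, which holds cells in the B lineage and silences other fates, read 4.01 and 4.56 with vehicle and 3.94 and 3.86 with the combination. The groups did not overlap, but the gap between vehicle 1 and the nearest combination array was small beside the gap between the vehicle arrays themselves. Its log2 difference was -0.38 (SE 0.22, 95% interval -0.97 to 0.20; limma's unadjusted p = 0.151, adjusted p = 0.938). With vehicle 2 left out the difference of Pax5 was -0.11, and with vehicle 1 left out it was -0.66, at an unadjusted p of 0.0269 in limma.

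The signalling chains of the antigen receptor did not separate the groups. Cd79a, which carries an activation motif that recruits SYK, read 4.64 and 5.26 with vehicle and 4.97 and 5.31 with the combination. Its difference was 0.19 (95% interval -0.51 to 0.89), the only positive value among the 9 genes, and it turned to -0.12 without vehicle 1. Cd79b, its partner chain, read 6.07 and 6.57 with vehicle and 6.32 and 5.99 with the combination. The difference of Cd79b was -0.17 (95% interval -0.78 to 0.45) and turned to 0.08 without vehicle 2.

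Both parts of the surrogate light chain gave overlapping groups as well. Vpreb1 read 5.93 and 6.53 with vehicle and 6.16 and 6.15 with the combination, so that both combination arrays fell between the vehicle arrays. Its difference was -0.07 (95% interval -0.69 to 0.55), and 0.23 without vehicle 2. Igll1, within the background range, read 3.61 and 4.03 with vehicle and 3.58 and 3.62 with the combination, a difference of -0.22 (95% interval -0.71 to 0.28). Without vehicle 2 the difference of Igll1 was -0.0060, and without vehicle 1 it was -0.43. Dntt, which encodes terminal transferase and marks early lymphoid progenitors, was also within the background range. It read 3.83 and 4.23 with vehicle and 3.85 and 3.92 with the combination. The difference of Dntt was -0.14 (95% interval -0.63 to 0.34) and turned to 0.06 without vehicle 2.

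Counted over the set, 0 of the 9 genes passed limma's adjusted threshold, which 0.00303% of all features passed. At an unadjusted p under 0.05, 3 of the 9 were lower, Ebf1, Blnk and Stap1, and 0 were higher. Across all features 2.44% were lower and 3.14% higher by that measure. The combination arrays lay below both vehicle arrays for 4 of the 9, the same 3 genes and Pax5, against 13.9% of all features, and above both for 0 of the 9, against 20.4%. The median difference of the 9 genes was -0.22, beside 0.02 for all features, and 8 of the 9 were below 0, as were 44.6% of all features. The interval plot sets these differences beside those of the wider lymphoid list.

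**Figure D2:**
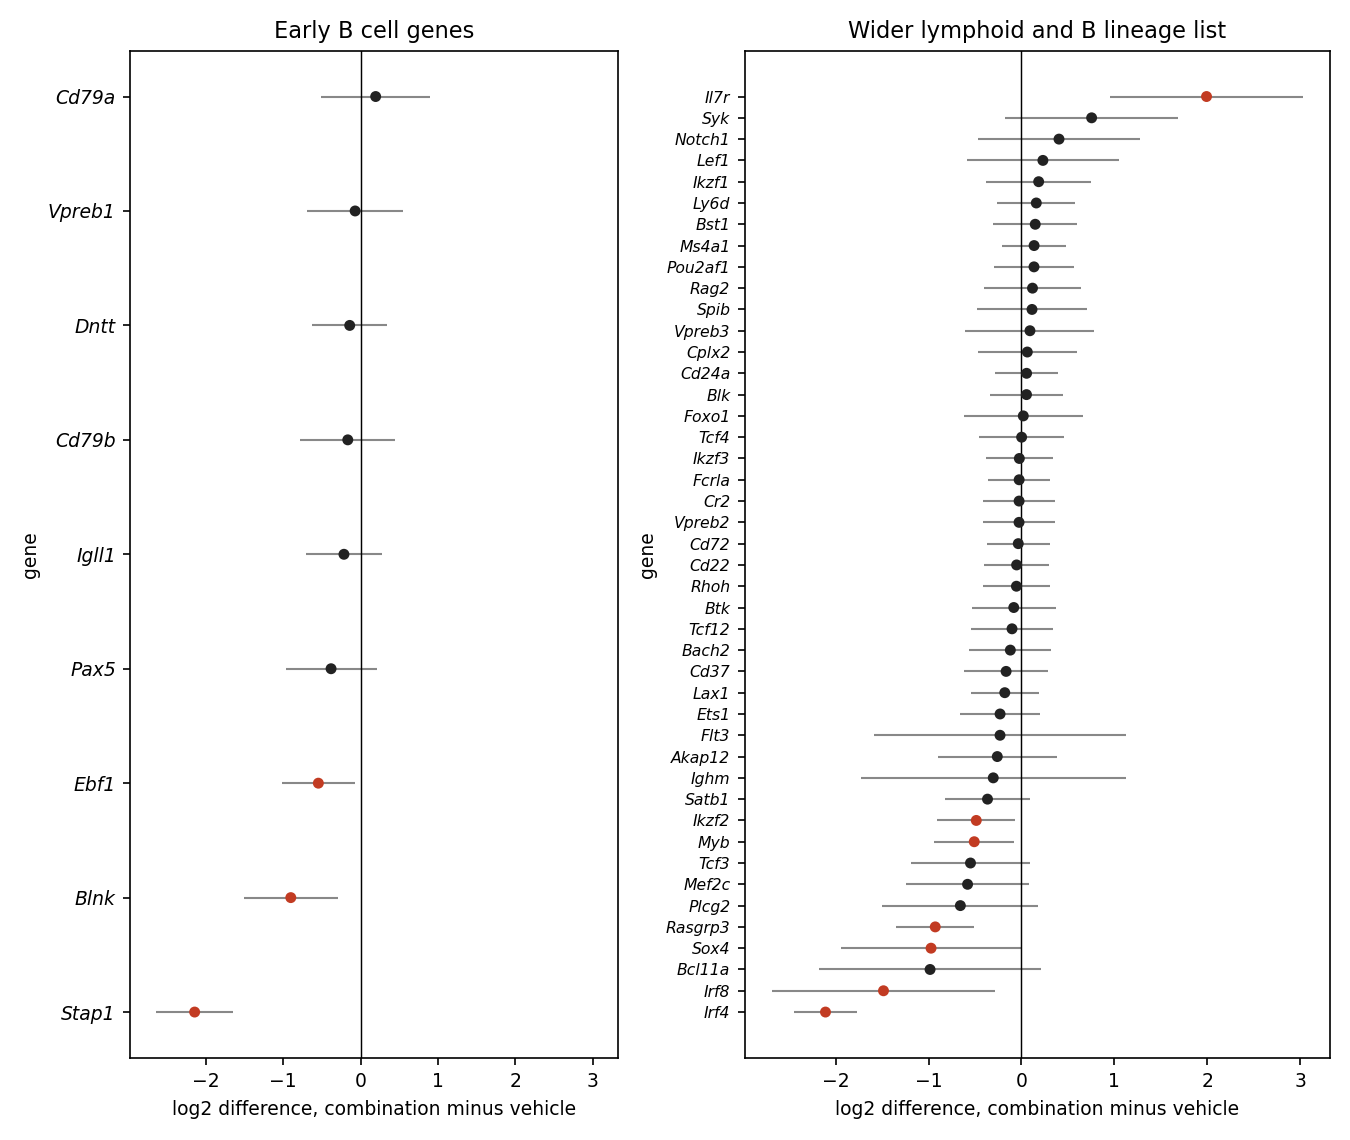
Log2 difference, combination minus vehicle (horizontal axis), with limma's 95% interval for the 9 measured early B cell genes (left) and the 44 measured genes of the wider lymphoid and B lineage list (right). Red points have an unadjusted p under 0.05 in limma, and none passed the adjusted threshold. Stap1 and Irf4 lie near -2.15 and -2.11, and Il7r near 1.99.

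The vehicle arrays differed from each other on most of these genes. Vehicle 2 was above vehicle 1 for 8 of the 9, all but Stap1, with a median gap of 0.496 over the 9, while 54.8% of all features were higher on vehicle 2. Combination 2 was above combination 1 for 5 of the 9, with a median gap of 0.0416. Leaving out vehicle 2 moved the median difference of the set from -0.22 to -0.0060, and leaving out vehicle 1 moved it to -0.43. The count of genes lower at an unadjusted p under 0.05 went from 3 to 1 without combination 1, where Stap1 alone remained. The differences of Blnk and Ebf1 were then -0.81 and -0.53, and such a fit has fewer arrays to estimate the spread. The plot with each array left out shows that Stap1 is the gene whose difference depended least on the array, relative to its size.

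**Figure D3:**
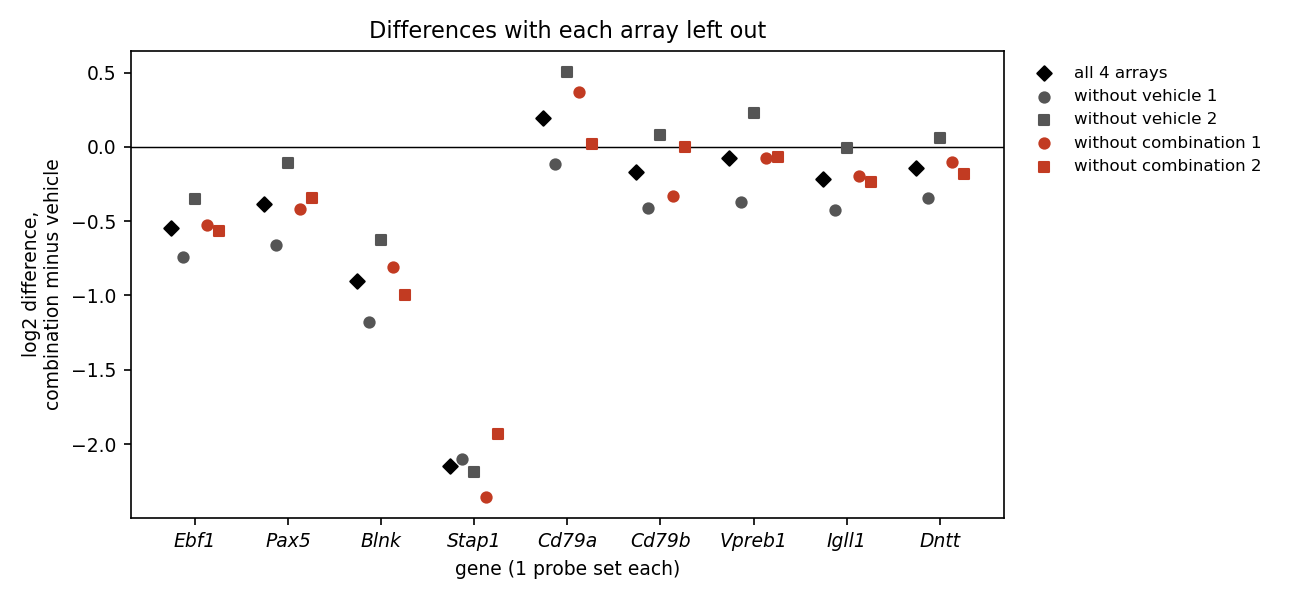
Log2 difference, combination minus vehicle (vertical axis), of the 9 measured early B cell genes with all 4 arrays (black diamonds) and with each array left out in turn (grey for a vehicle array, red for a combination array). Stap1 stays between -2.35 and -1.94, and Cd79a, Cd79b, Vpreb1 and Dntt cross 0 in at least 1 of these fits.

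A wider list of 48 lymphoid and B lineage genes was read from the same fit, and 44 of them had a probe set of their own. With limma 0 of the 44 passed the adjusted threshold. At an unadjusted p under 0.05, 6 were lower (Irf4, Irf8, Rasgrp3, Sox4, Myb and Ikzf2), against 2.44% of all features. By the same measure 1, Il7r, was higher, against 3.14% of all features. Whatever their p, the combination arrays lay below both vehicle arrays for 13 of the 44 genes, against 13.9% of all features. They lay above both for 4, against 20.4%. The median difference was -0.04, and 19 of the 44 genes had both means within the background range, beside 17212 of all 30142 genes. Without combination 1 the counts were 3 lower and 2 higher, and without vehicle 2 they were 4 lower and 2 higher. Of the other genes of the list, only Flt3, Tcf3, Foxo1, Rag2, Ighm and Cd24a are described below.

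Il7r went in the direction opposite to Stap1. It encodes the alpha chain of the interleukin-7 receptor, the main survival and growth receptor of lymphoid precursors in mice. The signal of Il7r was 5.44 and 6.03 with vehicle and 7.24 and 8.21 with the combination. Both combination arrays lay above both vehicle arrays, which were near the background limit. The log2 difference was 1.99 (SE 0.39, 95% interval 0.95 to 3.03), a 3.98-fold higher signal, with limma's unadjusted p at 0.00495 and adjusted p at 0.584. With 1 array left out it stayed between 1.51 and 2.48. Flt3, the cytokine receptor of multipotent and lymphoid progenitors, showed no such separation, at 5.92 and 7.25 against 6.01 and 6.71.

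The list holds a pair of interferon regulatory factors of the B and dendritic lineages. Irf4, which acts with IRF8 in pre-B cells and alone in plasma cells, read 7.17 and 7.15 with vehicle and 5.09 and 5.01 with the combination. Each pair of replicates was tight, and the combination mean was within the background range. The log2 difference of Irf4 was -2.11 (SE 0.13, limma's adjusted p = 0.127). That combination mean, 5.05, was above the background means per array, and whether the difference is understated was not tested. Irf8 read 7.33 and 8.62 with vehicle and 6.34 and 6.65 with the combination, a difference of -1.48 (SE 0.46, limma's adjusted p = 0.82). Its vehicle arrays were far apart, and the difference was -0.84 without vehicle 2 and -2.13 without vehicle 1.

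Rasgrp3, a Ras activator downstream of phospholipase C in B cells, read 6.22 and 6.51 with vehicle and 5.48 and 5.39 with the combination. Its difference was -0.93 (SE 0.16, limma's adjusted p = 0.497), with the groups apart. The combination mean of Rasgrp3, 5.43, was within the background range but near its upper limit. Whether its difference is understated was not tested. Groups were also apart for Sox4, a factor needed for pro-B cells (-0.97, and -0.58 without vehicle 2), Myb, which sustains progenitors and early lymphoid cells (-0.51), and the Ikaros relative Ikzf2 (-0.49). Limma's adjusted p for these genes lay between 0.842 and 0.892. The plot of these 7 genes by array shows the combination arrays of Il7r above its vehicle arrays and those of the other 6 below.

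**Figure D4:**
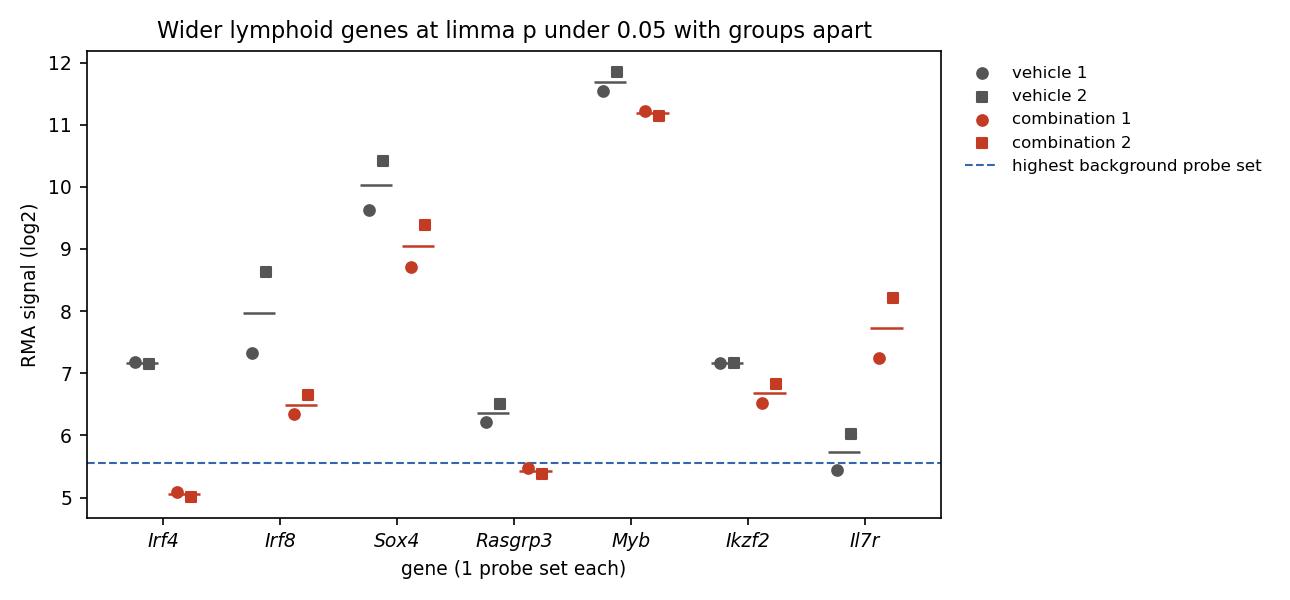
RMA signal (log2, vertical axis) of the 7 genes of the wider list with an unadjusted p under 0.05 in limma and groups that do not overlap, ordered by difference. Grey marks are vehicle arrays, red marks combination arrays, circles replicate 1, squares replicate 2, short lines group means, and the dashed line the highest background probe set at 5.55. The means of Irf4 are 7.16 (vehicle) and 5.05 (combination), and Il7r is at 5.74 with vehicle and 7.73 with the combination.

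The E protein gene Tcf3, which encodes E2A, the factor that binds the CAGGTG motif printed above, read 7.85 and 7.25 with vehicle and 7.11 and 6.90 with the combination. Its groups did not overlap, and its difference of -0.55 had a 95% interval of -1.19 to 0.09. It was -0.25 without vehicle 1 and -0.85 without vehicle 2. Foxo1, which with E2A and EBF1 supports Il7r and Rag transcription, read 5.99 and 6.59 against 6.21 and 6.41. Its difference of 0.02 turned to -0.03 once each array was centred on its median. Rag2 was within the background range, at 3.68 and 4.06 against 3.86 and 4.12. None of these 3 had an unadjusted p under 0.05 in limma on all arrays, while Tcf3 had 0.0171 without vehicle 2.

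Markers of other cell types that share some of these genes were read beside them. Of 6 measured monocyte and macrophage markers, 3 were lower at an unadjusted p under 0.05 in limma, against 2.44% of all features. These were Csf1r, Ccr2 and Adgre1, with Ccr2 at 7.43 and 7.40 against 5.58 and 5.72. The summed signal of that list was 11.71 and 12.36 with vehicle and 11.74 and 12.05 with the combination, so it overlapped between the groups, and it followed Ly6c2, the brightest of the 6. Csf1r, Ccr2 and Adgre1 each had groups apart. Its median difference was -0.64, and its part in the differences of Stap1, Blnk, Irf4 and Irf8 was not tested. Of 6 measured plasmacytoid dendritic cell markers, 0 reached an unadjusted p under 0.05 in limma and 0 the adjusted threshold. Siglech, their defining surface gene, read 6.36 and 6.30 with vehicle and 6.48 and 6.44 with the combination. The summed signal of that list followed Bst2, at 14.99 and 11.86 with vehicle and 14.53 and 11.60 with the combination. The glucocorticoid receptor gene Nr3c1 read 8.37 and 8.24 against 8.49 and 7.80, a difference of -0.16 (95% interval -0.85 to 0.53).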

How the data were processed

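The value table the authors deposited holds log2 signals summarised by RMA with the Transcriptome Analysis Console, per the submitters' notes on processing; no version or build is stated in the sources used here. Of 72688 rows, 6732 control rows were left out by identifier. Array medians lay between 4.36 and 4.44, and the number of arrays limits the precision. Symbols came from the platform annotation, updated through RefSeq (GRCm38.p6; 22818 features matched by Entrez identifier); of several probe sets of a gene, that with the highest mean was taken.

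All features were fitted with limma 3.58.1 in R 4.3.3 (lmFit and eBayes, group only, two-sided), with Benjamini-Hochberg adjustment over all features and a threshold of 0.05; the fit was tested on simulated data. SDs are over 2 arrays, SEs and intervals are limma's moderated ones, and a list's summed signal is the log2 of summed linear signals. The duplicates are biological per the design text, but the mice behind each are not stated. The p-values rest on the spread between these samples, moderated by the spread that limma estimates over all features. They cannot be taken to cover the spread between mice. The members and lists were chosen with earlier results of these data known. Named were all members, genes of the wider list past the adjusted threshold or at an unadjusted p under 0.05 with groups apart, and Il7r, Flt3, Tcf3, Foxo1, Rag2, Irf4, Kit and Nr3c1 in any case; other markers were chosen once their values had been seen. The alternatives tried were a replicate block, other priors, kept control rows, filters at the 25th percentile and the median, a second quantile normalization, centring and leaving out each array.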

Additional observations from a re-analysis of the deposited data

How the results depend on the processing

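Under the 12 alternatives, 0 of the 9 measured early B cell genes and 0 of the 44 genes of the wider list passed limma's adjusted threshold, as in the fit reported, and the lowest adjusted p of Stap1 was 0.0854, with the replicate block. Over all features the 2 calls became 19 with the replicate block and 0 with an intensity trend, with the control rows kept, with either filter, after a second quantile normalization and without any 1 array (0 to 0). With 2 arrays per group few differences can pass that threshold, so these counts of 0 say nothing about stability. The members lower at an unadjusted p under 0.05 in limma, 3 on all arrays, numbered 1 to 4 with 1 array left out and 3 under each other alternative. In the wider list the 6 lower became 10 with the replicate block, 3 with an intensity trend and 3 to 8 with 1 array left out (3 without combination 1). The lower count of that list was 5 with a robust prior, with the control rows kept and with either filter. After a second quantile normalization it was 4, and with centred arrays it was 6. Sox4 had an unadjusted p of 0.0492 in limma on all arrays. It was above 0.05 with a robust prior, with the control rows kept, with either filter and after the second quantile normalization. The replicate block also put Tcf3 at an unadjusted p of 0.0256 in limma. The 1 higher became 2 with the replicate block and 1 to 2 with 1 array left out. Differences that changed sign were -0.12 to 0.50 for Cd79a, -0.415 to 0.0812 for Cd79b, -0.37 to 0.23 for Vpreb1, -0.344 to 0.0601 for Dntt, -0.90 to 0.44 for Flt3, -0.28 to 0.32 for Foxo1 and -0.0703 to 0.309 for Rag2 with 1 array left out, and -0.0325 for Foxo1 with centred arrays; the cause was not tested. The arrays with the same number share only that number in the labels; the vehicle and combination gaps between numbers 1 and 2 correlated at r = 0.328 over the 65956 features and at r = 0.609 over the 12615 genes with a mean above the background range; features and genes are not independent. No member had a further probe set, so that alternative gave no value. Igll1, Pax5 and Dntt fell below 1 or both filters on dim features.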

Other observations

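Genes of antibody-secreting cells, the last stage of the B lineage, gave mixed values. Xbp1, a driver of the secretory apparatus, read 12.86 and 13.66 with vehicle and 14.34 and 14.94 with the combination, a log2 difference of 1.38 with an adjusted p of 0.781 in limma. Prdm1, which encodes the repressor BLIMP-1, read 4.46 and 4.59 against 5.06 and 5.67, with both means within the background range (limma's adjusted p = 0.802). Both genes had groups apart. Jchain, the joining chain of secreted antibodies, read 7.21 and 8.07 against 7.45 and 7.39, with overlapping groups. Xbp1 and Prdm1 are also used outside the B lineage, and these genes were picked after their values were seen. Of the 9 measured markers of mature B and plasma cells, 2 were higher (Xbp1 and Prdm1) and 1 was lower (H2-Ab1) at an unadjusted p under 0.05 in limma, and their summed signal, which followed Xbp1, was 12.96 and 13.73 with vehicle and 14.37 and 14.96 with the combination. Across all features 2.44% were lower and 3.14% higher at that unadjusted p. It was reached by 1 of 7 NK cell and 1 of 7 neutrophil markers, each higher, and by 1 of 5 erythroid markers, lower. Of 5 mast cell and basophil markers 1 was lower and 1 higher, and of 8 progenitor markers 2 were lower. The same measure was reached by 0 of 4 megakaryocyte and 0 of 8 T cell markers. After adjustment in limma, 0 markers of all these lists passed.

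Ighm, the mu heavy chain gene, gave a strong signal on every array, 14.50 and 15.98 with vehicle and 14.65 and 15.22 with the combination, although Vpreb1 and Igll1 were near or within the background range. Cd24a, a surface gene of early B cells and many other progenitors, read 15.33 and 15.25 against 15.37 and 15.32, a difference of 0.06 (95% interval -0.28 to 0.39).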
